A study of Homo sapiens with 6 samples.

Results

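PC3 is an established human prostate cancer cell line, and the arrays compared PC3 cells with and without induced PGC1A, a coactivator of transcription encoded by PPARGC1A. The genes described here are 10 nuclear genes grouped under mitochondrial DNA replication and transcription, with a mitochondrial nuclease: POLG, POLG2, TWNK, SSBP1, MGME1, POLRMT, TFB1M, TEFM, MTERF3 and ENDOG. They were taken by symbol from the annotation of the array's probes, which gave 11 probes, 2 of them for MTERF3 and 1 for each other gene. These are 10 of the 9841 genes tested and 11 of the 15542 probes tested. All 11 probes had a detection p under 0.01 on all 6 arrays, so none of these was set aside as dim. TWNK was already listed under its present symbol. Names were available only for probes that 1 or more arrays detected, so further dim probes of these genes could exist.

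There were 3 arrays of cells given doxycycline for 2 passages, which switches the PGC1A construct on, and 3 arrays of cells without doxycycline. Cells of both groups are of the line labelled PC3 PGC1A. The labels do not say whether the line is a clone, and cells given doxycycline without the construct were not analysed here, so doxycycline and PGC1A cannot be told apart. The comparison asks what switching PGC1A on does to the RNA of these genes. The labels give no culture for a replicate, so a p-value here reflects the spread between these 6 arrays alone, which may be technical. In a principal component analysis of all tested probes doxycycline replicate 2 stood apart on the first component (34.1% of the variance), at 20.6. The other doxycycline arrays stood at 7.35 and 7.51, and the arrays without doxycycline between -13.6 and -8.84, so the first component also set the groups apart. On the second component (31.9%) doxycycline replicate 1 stood apart, at -20.2, with the other 5 arrays from -6.42 to 14.1. There replicate 1 was the lowest of its group with and without doxycycline, and replicate 2 the highest, at 14.1 and 14.0. In RNA from a whole culture, fewer cells that express a gene and less RNA per cell cannot be told apart.

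Mitochondrial DNA is a small circle present in many copies per cell, and it is copied and transcribed by proteins that nuclear genes encode. DNA polymerase gamma, the helicase Twinkle and a single-strand binding protein make up the core of its replication machinery. A single-subunit RNA polymerase transcribes it and also makes the primers for replication, so the transcription and replication machineries meet. PGC1A is known as a driver of mitochondrial biogenesis in muscle and brown fat, where it acts with the orphan nuclear receptor ERR-alpha and the respiratory factors NRF1 and GABPA.

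The 4 promoter windows shown here are those of ENDOG, which rose, of POLG2, which had the next largest change, and of POLRMT and TFB1M, which hold the palindromic core of the NRF1 site. Each runs from 250 bases before to 50 bases after the start of the gene in RefSeq, on build GRCh38.p14, and is written 5′ to 3′ on the strand of the gene. Capitals mark the motifs that were searched for on both strands. These were the NRF1 core palindrome CGCATGCG, the same core with 1 base free (CGCANGCG), the ETS core CCGGAAG that GABPA binds, and the ERR element TNAAGGTCA. The ENDOG window lies at chr9:128818250-128818549 on the plus strand, and the POLG2 window at chr17:64497005-64497304 on the minus strand. The POLRMT window lies at chr19:633488-633787 and the TFB1M window at chr6:155314435-155314734, both on the minus strand.
ENDOG: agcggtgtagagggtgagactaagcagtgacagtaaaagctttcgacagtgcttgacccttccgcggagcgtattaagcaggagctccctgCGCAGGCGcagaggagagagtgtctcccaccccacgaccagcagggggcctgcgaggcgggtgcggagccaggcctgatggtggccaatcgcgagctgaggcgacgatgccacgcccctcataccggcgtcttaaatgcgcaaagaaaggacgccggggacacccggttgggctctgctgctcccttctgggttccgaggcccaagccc
POLG2: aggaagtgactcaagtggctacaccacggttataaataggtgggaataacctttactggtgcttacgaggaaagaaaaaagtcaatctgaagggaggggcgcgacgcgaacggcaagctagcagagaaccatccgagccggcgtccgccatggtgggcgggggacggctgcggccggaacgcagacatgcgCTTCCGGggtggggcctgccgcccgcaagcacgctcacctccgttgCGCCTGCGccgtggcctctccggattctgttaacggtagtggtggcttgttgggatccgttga
POLRMT: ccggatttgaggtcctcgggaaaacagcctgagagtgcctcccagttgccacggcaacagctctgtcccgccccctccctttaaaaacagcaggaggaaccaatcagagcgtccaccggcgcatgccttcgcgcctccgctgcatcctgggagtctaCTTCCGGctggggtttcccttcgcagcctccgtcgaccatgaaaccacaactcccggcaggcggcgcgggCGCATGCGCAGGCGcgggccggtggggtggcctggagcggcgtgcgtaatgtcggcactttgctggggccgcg
TFB1M: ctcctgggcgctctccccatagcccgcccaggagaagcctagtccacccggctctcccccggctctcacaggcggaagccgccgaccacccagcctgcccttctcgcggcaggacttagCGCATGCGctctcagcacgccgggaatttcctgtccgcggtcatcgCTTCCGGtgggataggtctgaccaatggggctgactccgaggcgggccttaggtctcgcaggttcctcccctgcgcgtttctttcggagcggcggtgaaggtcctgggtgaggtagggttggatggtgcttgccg

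Promoter windows of 8 of the 10 genes were searched, 10 windows in all, since SSBP1 has 3 annotated starts. TWNK and MTERF3 were not searched. The NRF1 core palindrome was found in 2 of the 8 genes, POLRMT and TFB1M (2 of the 10 windows), and in 2.02% of all 35116 windows. With 1 base free it was found in 4 of the 8 genes (4 of the 10 windows) and in 10% of all windows (3527). Every palindrome is also counted as the freer form, and in POLRMT a second match of that form overlaps the first. In ENDOG the match reads CGCAGGCG and begins at position -159 from the start. In POLG2 it reads CGCCTGCG, a match on the opposite strand, and begins at position -13. The ETS core was found in 5 of the 8 genes, SSBP1, TFB1M, TEFM, POLG2 and POLRMT. These held 7 of the 10 windows, the 3 of SSBP1 among them, against 10.3% of all windows. The ERR element was in none of the 8 and in 0.951% of all windows. A match is only a run of letters, and whether any factor binds it in these cells was not analysed here.

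ENDOG rose and the other 9 genes did not pass the test. ENDOG encodes endonuclease G, a nuclease of the mitochondrial intermembrane space that is known to leave the organelle and cut nuclear DNA in apoptosis. Its probe, ILMN_1722309, read raw intensities of 469, 459 and 477 without doxycycline (replicates 1 to 3) and 865, 736 and 669 with it. After background correction and normalization these were log2 signals of 8.75, 8.61 and 8.63 without and 9.70, 9.50 and 9.44 with doxycycline. All 3 doxycycline arrays lay above all 3 others, and the gap between the groups, 0.69, was wider than the range within either, 0.14 without and 0.26 with doxycycline.

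The ENDOG mean went from 8.66 ± 0.08 (SD, n = 3) to 9.55 ± 0.14 (SD, n = 3). The rise of 0.89 on the log2 scale (SE 0.0985) was 1.85-fold with a 95% interval from 1.58 to 2.16 (limma, adjusted p = 0.0241 over all tested probes). Between arrays of the same replicate number the rise was 0.95, 0.89 and 0.82 on the log2 scale for replicates 1 to 3. By p-value the ENDOG probe stood at rank 11 of the 15542 tested, and 30 probes rose by as much or more, ENDOG included. An exact two-sided permutation test over the 6 arrays gave p = 0.1, the smallest that 3 arrays against 3 can give.

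Of all probes tested, 106 passed at an adjusted p under 0.05 (0.682%), 89 of them higher with doxycycline (0.573%). Among the 11 probes of these genes 1 passed. With the replicate number as a block 167 probes passed, and ENDOG was still among them (adjusted p = 0.0242). With 1 array left out the ENDOG call was kept without doxycycline replicate 2 (adjusted p = 0.0476), while its p was 0.0682, 0.11 and 0.125 without no-doxycycline replicates 1, 2 and 3. Without doxycycline replicates 1 and 3 it was 0.0878 and 0.0712. In those 6 fits, run without the block, the log2 change stayed between 0.81 and 0.94, and the largest unadjusted p was 0.000166.

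**Figure D1:**
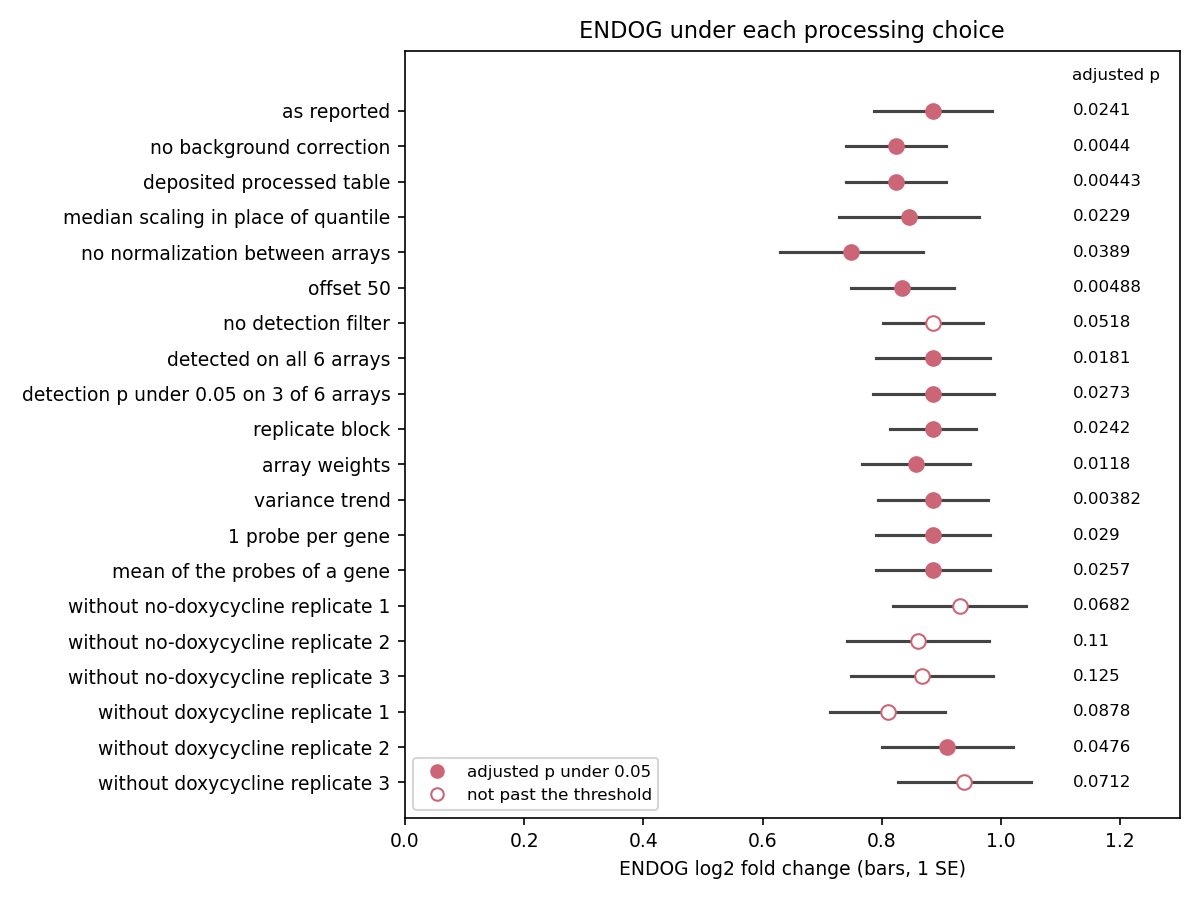
ENDOG log2 fold change, doxycycline over no doxycycline, under each processing choice (points, with bars of 1 SE), with the adjusted p at the right and filled points where it was under 0.05. The change lay between 0.75 and 0.94 under every choice drawn, and the open points are the fit with no detection filter and 5 of the 6 fits that leave out 1 array.

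Within the replication machinery none of the 5 genes passed. POLG, the catalytic subunit of DNA polymerase gamma, read 7.49, 7.25 and 7.60 without and 7.0, 7.48 and 7.72 with doxycycline (log2 signal, replicates 1 to 3). The groups overlapped, with doxycycline replicate 1 the lowest and doxycycline replicate 3 the highest of the 6 arrays. The log2 fold change of POLG was -0.05 with the widest interval of the 10 genes, from -0.47 to 0.37 (adjusted p = 0.925), and it was 0.15 without doxycycline replicate 1.

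POLG2, the accessory subunit that helps the polymerase stay on its template, read 7.60, 8.01 and 7.87 without and 8.04, 8.14 and 8.11 with doxycycline. The doxycycline arrays all lay above the others, by a gap of 0.03 where the arrays without doxycycline ranged over 0.41. Over all probes tested 21.6% had groups that did not overlap, and here 2 of the 11 did, ENDOG and POLG2. The POLG2 log2 fold change was 0.27 (SE 0.116), with an interval from 0.01 to 0.54. It was 0.16 without no-doxycycline replicate 1, and 0.16 with no normalization between arrays. Its adjusted p was 0.325 in limma. Unadjusted, its p was 0.0459, and 14.9% of all tested probes had one under 0.05. With the replicate block the adjusted p of POLG2 was 0.157.

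TWNK encodes Twinkle, the helicase that unwinds mitochondrial DNA ahead of the polymerase. It read 10.12, 10.02 and 9.87 without and 9.96, 10.02 and 9.98 with doxycycline, a log2 fold change of -0.02 (adjusted p = 0.946). The doxycycline arrays of TWNK lay inside the range of the others. SSBP1, which coats single-stranded mitochondrial DNA, read 10.93, 10.86 and 10.99 without and 11.11, 10.84 and 11.04 with doxycycline. The doxycycline arrays of SSBP1 held both the lowest and the highest value, and its log2 fold change was 0.07 (adjusted p = 0.784).

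MGME1, an exonuclease that trims the ends of newly made mitochondrial DNA, had the lowest change of the 10 genes. It read 8.97, 8.99 and 9.04 without and 9.01, 8.83 and 8.77 with doxycycline. Doxycycline replicates 2 and 3 of MGME1 lay below every array without doxycycline, and doxycycline replicate 1 lay among them. Its log2 fold change was -0.13 with an interval from -0.35 to 0.08 (adjusted p = 0.548).

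Of the 4 genes grouped under transcription none passed either. POLRMT, the RNA polymerase, read 9.04, 8.99 and 9.04 without and 9.12, 9.0 and 9.15 with doxycycline (log2 signal, replicates 1 to 3). The POLRMT groups overlapped through doxycycline replicate 2, and the log2 fold change was 0.07 with an interval from -0.12 to 0.26 (adjusted p = 0.75). TEFM, its elongation factor, read 8.14, 8.06 and 7.99 without and 8.23, 8.06 and 8.15 with doxycycline. The TEFM log2 fold change was 0.08 (adjusted p = 0.693), again with overlapping groups.

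TFB1M, which methylates the small ribosomal RNA of the mitochondrion, had the smallest standard error of the 11 probes. It read 9.45, 9.43 and 9.49 without and 9.51, 9.42 and 9.43 with doxycycline, a range of 0.09 over all 6 arrays. The TFB1M log2 fold change was 0.00, and its interval, from -0.19 to 0.18, leaves a fold between 0.88 and 1.13 (adjusted p = 0.987).

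MTERF3, known in mice to restrain mitochondrial transcription, has 2 probes, and these gave changes within 0.01 of each other. ILMN_1782504 read 9.72, 9.51 and 9.81 without and 9.79, 9.43 and 9.85 with doxycycline, a log2 fold change of 0.01 (adjusted p = 0.984). ILMN_2044617 read 10.09, 9.93 and 9.96 without and 10.25, 9.78 and 9.94 with doxycycline, a log2 fold change of 0.00 (adjusted p = 0.998). On both MTERF3 probes replicate 2 was the lowest of its group with and without doxycycline.

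**Figure D2:**
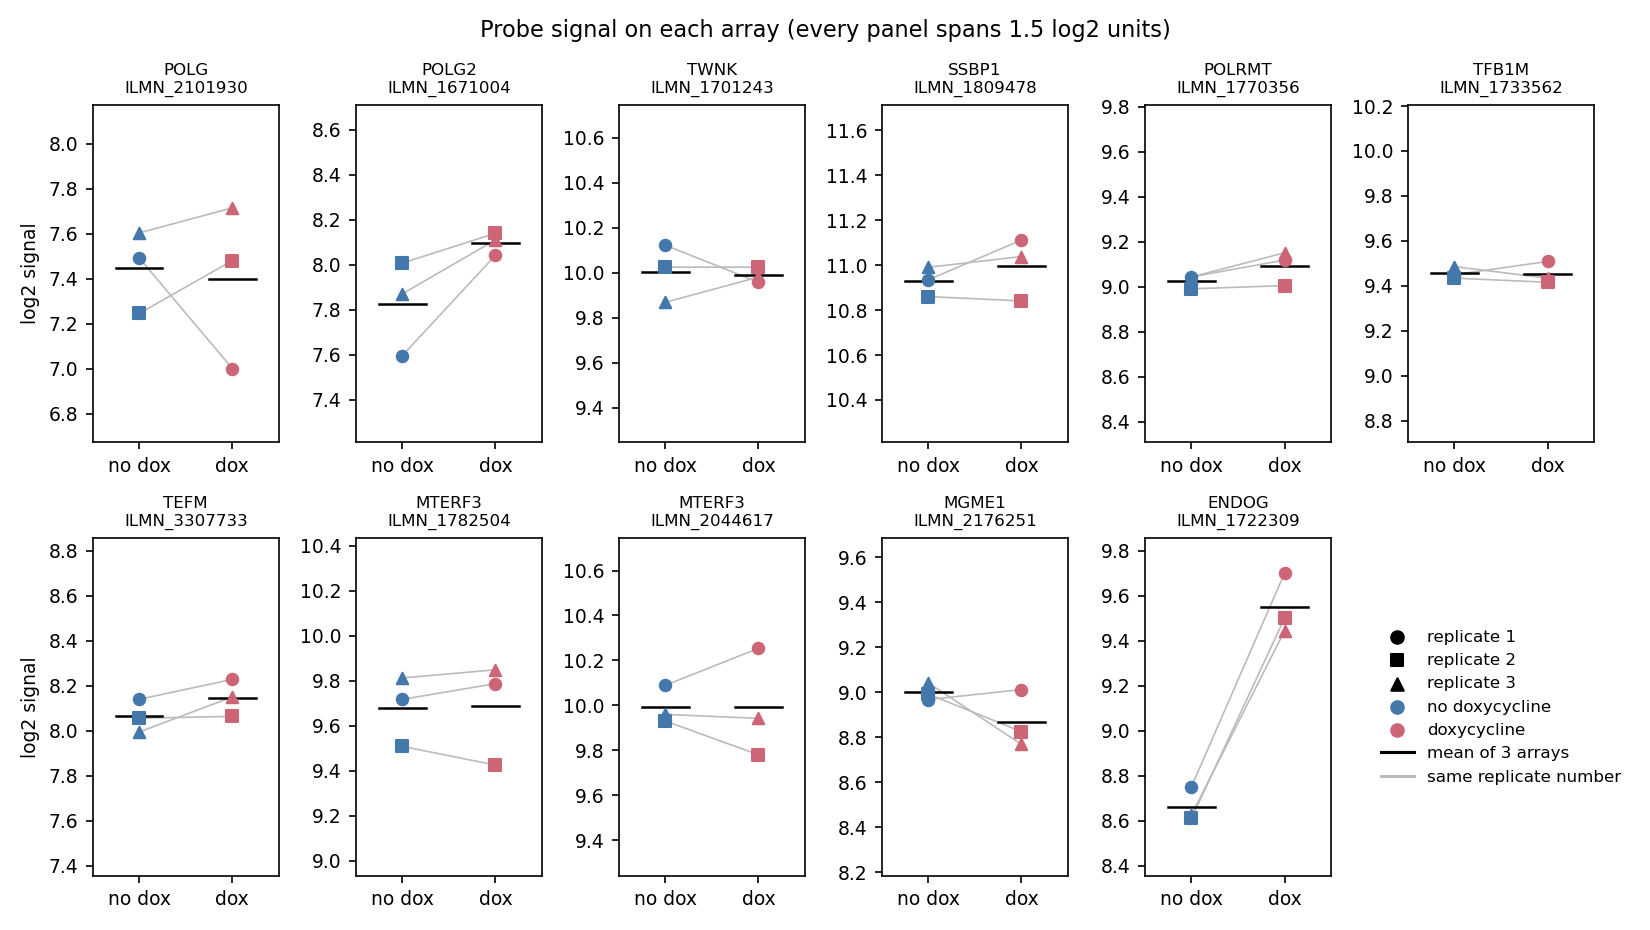
Log2 signal of each of the 11 probes on each array (vertical axis, every panel spanning the same 1.5 units), by group, with the replicate number as the marker shape, grey lines joining the same number and black bars for the mean of 3 arrays. The groups stand apart by 0.69 in ENDOG and by 0.03 in POLG2, and overlap in the other 9 probes.

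The 10 probes that did not pass had log2 fold changes from -0.13 to 0.27, of which 8 were under 0.1 in size, with 5 above 0 and 5 below. Their median was 0.00, beside -0.02 over all probes tested. Of their 10 intervals 9 included 0, and 9 lay wholly between -0.5 and 0.5, the exception to both being POLG2. Together the 10 intervals ran from -0.47 to 0.54, that is from 0.723-fold to 1.45-fold, so a smaller change in these genes could have been missed. The median standard error over all probes tested was 0.107, and those of these 11 probes ran from 0.0789 for TFB1M to 0.182 for POLG.

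**Figure D3:**
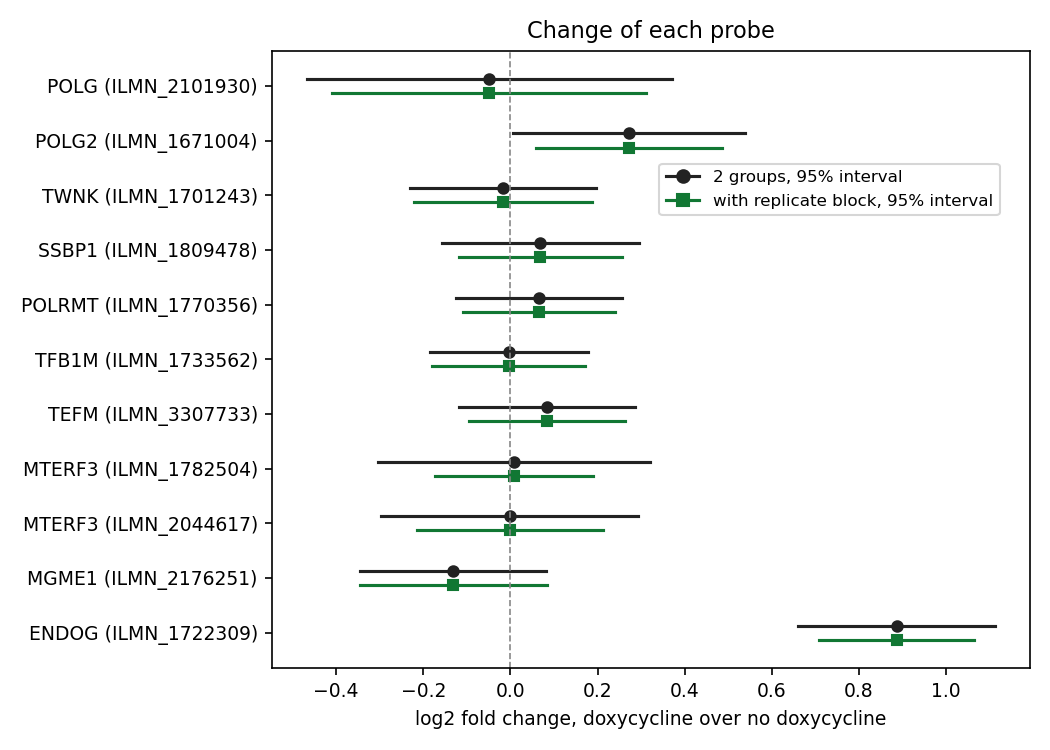
Log2 fold change of each probe, doxycycline over no doxycycline (horizontal axis), with 95% intervals from the comparison of the 2 groups (black circles) and with the replicate number as a block (green squares). ENDOG stands at 0.89, while the other 10 probes lie between -0.13 and 0.27.

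The difference between ENDOG and each other gene was tested directly, as the per-array difference of log2 signals in a limma fit over all other probes. Every difference in that fit holds the same ENDOG values, so they are not independent, and the intervals and p-values may be too small. ENDOG was picked out with its rise already known, and 98.7% of all other tested probes also differed from it at an adjusted p under 0.05, so these values describe ENDOG more than the other genes. The change of ENDOG exceeded that of POLG2, the nearest, by 0.61 (95% interval 0.26 to 0.97). It exceeded that of MGME1, the farthest, by 1.02 (0.75 to 1.29), and those of POLG, TWNK, SSBP1, POLRMT, TFB1M, TEFM and both MTERF3 probes by 0.80 to 0.93. All 10 differences passed (limma, adjusted p from 3.64e-05 to 0.00273).

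In 6 of the 11 probes the same replicate number was the lowest in both groups, as it was in 49.3% of all tested probes. Replicate 2 was that number in 5 of the 11 probes, against 19.3% of all tested probes. These were SSBP1, POLRMT, TFB1M and both MTERF3 probes, the latter 2 probes of 1 gene. The count was noticed in the data. Without doxycycline replicate 2 the log2 fold changes of these 5 were 0.15 for SSBP1, 0.11 for POLRMT, 0.01 for TFB1M and 0.14 and 0.10 for the MTERF3 probes, none past the threshold. The median over the 10 genes was then 0.11, against 0.03 with all arrays, while the median over all genes was -0.02 and -0.03. Leaving out the lowest doxycycline array of a probe raises its change by construction, so nothing is concluded from these rises. Leaving out no-doxycycline replicate 2 instead gave a median of 0.01 over the 10 genes and -0.02 over all genes. Without doxycycline replicate 1 the median was 0.03 over the 10 genes and -0.02 over all genes.

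The level of ENDOG across the 6 arrays was set against that of the 9840 other genes, each centred on its own mean. The likeness is the root mean square difference in log2 signal over the 6 arrays, given as a description. CYCS, which encodes cytochrome c, was the most like it (0.0668). It was followed by FUT8, a fucosyltransferase (0.0729), IDH3A, a subunit of the isocitrate dehydrogenase of the tricarboxylic acid cycle (0.0778), FAM162A (0.0808) and the receptor gene GPR3 (0.0851). The median over all genes was 0.481, and the other 9 genes described here lay between 0.364 and 0.558. CYCS, FUT8, IDH3A and GPR3 had log2 fold changes of 0.83, 0.89, 0.81 and 0.77. FAM162A was detected on 0 of the 3 arrays without doxycycline and on 3 with it, so its likeness rests on values near background and its signal was at least 1.37-fold higher with doxycycline. That bound sets the arrays without doxycycline at the lowest signal of any detected probe. A likeness over 6 arrays in 2 groups mostly reads the size of the change between the groups.

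Beyond these genes, the lists of related genes held few calls. They were counted with 1 probe for each gene, where 53 of 9841 genes passed (0.539%, and 177 genes with the replicate block) and 21.5% had groups that did not overlap. Adjusted p-values of these genes are limma's over the 9841 genes. Of 14 partners in replication and transcription none passed, and 4 had groups that did not overlap, 2 in each direction. Their median log2 fold change was -0.08, beside -0.03 over all genes. The largest changes there were in DNA2, a helicase and nuclease that removes flaps (-0.23, adjusted p = 0.44), and in LIG3, the DNA ligase of the mitochondrion (-0.21, adjusted p = 0.338). TFAM, which packages mitochondrial DNA and opens its promoters, read 11.27, 11.03 and 11.07 without and 11.10, 10.87 and 11.15 with doxycycline, with overlapping groups. TFB2M, the initiation factor related to TFB1M, was at 0.07 (adjusted p = 0.742), and MTERF1, related to MTERF3, at 0.01 (adjusted p = 0.971).

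Among 14 tested genes that supply the building blocks of mitochondrial DNA none passed, with a median of -0.03. In 4 of the 14 all doxycycline arrays lay above the others, and in none below. Over all 9841 genes they lay above in 1008 and below in 1112. SUCLA2 encodes a subunit of succinyl-CoA ligase, an enzyme of the tricarboxylic acid cycle whose loss depletes mitochondrial DNA. It read 8.38, 7.92 and 8.01 without and 8.79, 8.71 and 8.52 with doxycycline, a log2 fold change of 0.57 (adjusted p = 0.125). SUCLA2 passed with the replicate block (adjusted p = 0.0479). SUCLG1, its partner subunit, had a change of 0.42, with an adjusted p of 0.192 and, under the block, of 0.0563.

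None of the 12 tested genes of mitochondrial DNA repair passed, with a median of -0.08, LIG3 and the flap nuclease FEN1 (-0.20, adjusted p = 0.477) having the largest changes. EXOG, the closest relative of ENDOG and a nuclease of the same organelle, lay near background. It read 5.76, 5.23 and 5.31 without and 5.38, 5.41 and 5.63 with doxycycline, a log2 fold change of 0.04 with an interval from -0.30 to 0.39 (adjusted p = 0.916). The change of ENDOG exceeded that of EXOG by 0.84 (95% interval 0.50 to 1.19). ENDOG was picked with its rise known, and 98.7% of other tested probes also differed from it, so this describes ENDOG more than EXOG.

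Of 11 tested apoptotic nucleases and proteins released from mitochondria 1 passed, CYCS, which carries electrons in the respiratory chain and triggers caspases once released. CYCS read 6.80, 6.53 and 6.64 without and 7.56, 7.43 and 7.47 with doxycycline, 0.83 higher on the log2 scale (SE 0.0951, adjusted p = 0.0291). The changes of ENDOG and CYCS differed by 0.06, with an interval from -0.21 to 0.33. The CYCS call was lost in each of the 6 fits that leave out 1 array (adjusted p from 0.0515 to 0.131). The list's median was 0.00, and 5 of its 11 genes had groups that did not overlap, 3 higher and 2 lower with doxycycline.

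**Figure D4:**
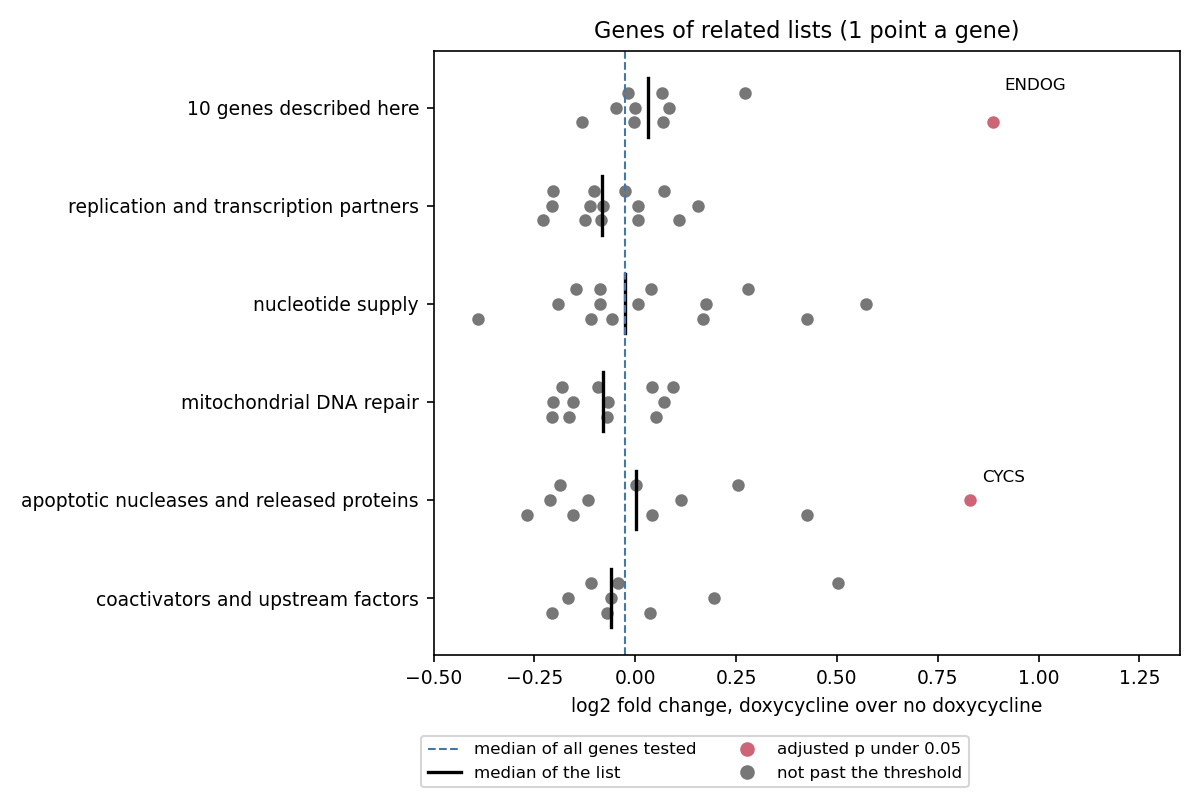
Log2 fold change, doxycycline over no doxycycline (horizontal axis), of each tested gene in 6 lists, with 1 point for each gene, a black bar for the median of the list and a dashed line for the median of all genes tested. ENDOG at 0.89 and CYCS at 0.83 are the 2 genes past the threshold, and the medians of the lists lie between -0.08 and 0.03.

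Of 9 tested coactivators and upstream factors none passed. ESRRA, which encodes ERR-alpha, read 8.01, 8.07 and 7.98 without and 8.50, 8.61 and 8.45 with doxycycline, without overlap, a change of 0.50 at an adjusted p of 0.0502, and it passed with the block (0.037). The change of ENDOG exceeded that of ESRRA by 0.38 (95% interval 0.09 to 0.68), a difference from the same fit and with the same limit as that from EXOG. GABPA was at -0.21 (adjusted p = 0.327). The probe of PPARGC1A read 4.94, 5.60 and 5.44 without and 5.26, 5.73 and 5.09 with doxycycline. It was detected on 2 of 3 arrays without and 3 of 3 with doxycycline, close to background and with overlapping groups, and since it is not known whether it lies in the part that a construct carries, it does not check the labels. Transcripts encoded by mitochondrial DNA itself have no named probe here and were not analysed here, nor was the amount of mitochondrial DNA.

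As a check of the cells, the epithelial genes KRT8, KRT19 and EPCAM and the genes VIM and CD44 had probes detected on all 6 arrays, as did CDH1, while the probe of KRT18 was detected on 1. Of 8 fibroblast markers 6 had a named probe, 4 were tested and none passed. COL1A2, LUM and PDGFRA were detected on all 6 arrays, COL1A1 on 5, and COL3A1 and DCN on 1 each. LUM was higher on all doxycycline arrays, by 0.33 on the log2 scale (limma, adjusted p = 0.19). The other 3 tested fibroblast markers had changes below 0. The summed normalized signal of the fibroblast markers ranged from 3056 to 3524 without and from 2996 to 3697 with doxycycline. Of 6 endothelial markers 1 was named, PECAM1, with a signal from 23.8 to 43.7 without and 13.5 to 42.3 with doxycycline. Of 8 immune markers 3 were named, and their sum ranged from 239 to 278 without and from 187 to 237 with doxycycline. That immune sum was lower on every doxycycline array than on any array without it. The 2 immune genes tested, CD14 and CD68, had groups that overlapped, with log2 fold changes of -0.31 and -0.16, and neither passed. CD14 and PECAM1 were each detected on 3 arrays without and 1 with doxycycline, near background. The part of other cells in the ENDOG result was not tested.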

How the data were processed

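Gene expression was measured on Illumina bead arrays, 1 for each of the 6 samples, from column-purified RNA that was amplified and labelled with biotin, per the labels' protocols. The authors deposited a table of linear probe intensity for 47231 probes, with a detection p-value for each probe and array, per the file headers. They also deposited processed log2 values for 17925 probes, exactly the probes that 1 or more arrays detected at p under 0.01. The first deposited log2 column has the median 7.51. Lumi is named, with no version, in the submitters' processing notes, and the scanner software is not given in the sources used here. The arrays detected from 15029 to 16012 probes each, with median intensities from 60.0 to 68.0, and their number limits the precision.

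Intensities were corrected with the normexp model from the detection p-values (offset 16), then normalized by quantiles on the log2 scale, all by neqc of limma 3.58.1 under R 4.3.3. The probes detected at p under 0.01 by 3 or more arrays were tested with lmFit and eBayes, two-sided, with Benjamini-Hochberg adjustment over all 15542 of them. A change is the log2 mean with doxycycline minus that without. For lists, the probe with the highest mean stood for its gene. The scripts were tested on simulated data.

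Gene names come from the annotation of the platform, which gives 13977 of the processed probes 1 gene, 4 several and 3944 none, with symbols updated through Entrez numbers in RefSeq (GRCh38.p14). Probes outside the processed table are unnamed here. Probe sequences and positions were not analysed here.

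The members, lists and tests were chosen with earlier results of these data known. Named genes are the 10 members, up to 3 called genes from each list or otherwise the 2 with the largest change, PPARGC1A, ESRRA, TFAM and the relatives EXOG, TFB2M and MTERF1, and the 5 genes most like ENDOG. The test of ENDOG against other probes was added after the data were seen.

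The titles number the replicates 1 to 3 in each group. Deviations from the group means correlated at 0.40, 0.46 and 0.24 between arrays of the same number and from -0.37 to -0.05 between different numbers. Deviations cancel out within a group, so the negative values are not separate evidence. The numbers were taken to pair the arrays. Intervals, adjusted p-values and the fits without 1 array are nonetheless unpaired unless a block is named. The fit with the number as a block is given where it changes a call or a count. The alternatives were other background correction, normalization, filters, weights, probe summaries and leaving out each array.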

Additional observations from a re-analysis of the deposited data

How the results depend on the processing

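ENDOG was recomputed under 19 alternatives, and the other probes under 18 or 19. The ENDOG change kept its direction in all 19, from 0.75 to 0.94 (1.68-fold to 1.92-fold), and its call in 13. The call was lost with no detection filter (0.89, adjusted p = 0.0518), where more probes are tested, and in 5 of the 6 fits without 1 array. Leaving out 1 array gave ENDOG changes from 0.81 to 0.94, and the call counts over the 11 probes were 0 to 1, with 0 also for no detection filter. With the replicate block ENDOG was at 0.89 (adjusted p = 0.0242). The replicate block changed no other call among the 10 genes. All 170 recomputed differences between ENDOG and the other probes kept their direction and their call. They are not separate checks, since ENDOG was picked with its rise known and several alternatives share the same estimates.

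The count over all probes, 106, was 198 on the deposited table and 198 with no background correction, 185 with an offset of 50, 45 with no normalization between arrays and 6 with no detection filter. It was 167 with the replicate block, 255 with array weights and 184 with a variance trend. By gene it was 53 with 1 probe for each gene and 66 with the mean of the probes. Leaving out 1 array gave 1 to 26. The count of called genes in the related lists, 1 (CYCS), was 2 on the deposited table, with no background correction, with an offset of 50, with detection on all 6 arrays, with array weights, with a variance trend and with the mean of the probes, where ESRRA joined. It was 3 with the replicate block, with SUCLA2, and 0 in each fit without 1 array. The causes were not tested.

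Signs near 0 turned, none past the threshold. With no normalization between arrays, which moves the median of all genes to -0.14, the change was -0.064 for SSBP1, -0.065 for POLRMT, -0.021 for TEFM and -0.13 for MTERF3 (ILMN_1782504), and the latter was -0.035 with median scaling. Array weights gave 0.085 for POLG and 0.0048 for MTERF3 (ILMN_2044617). Leaving out 1 array gave changes from -0.21 to 0.15 for POLG, -0.086 to 0.041 for TWNK, -0.031 to 0.015 for TFB1M, -0.078 to 0.14 for MTERF3 (ILMN_1782504) and -0.13 to 0.10 for MTERF3 (ILMN_2044617). POLG2 (0.16 to 0.36) and MGME1 (-0.26 to -0.082) kept their sign in all 19. The headers name no slide, so a slide block was not run. Signal over background limits the readings of EXOG and PPARGC1A.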
